A study of Mus musculus with 30 samples.

Results

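Small nucleolar RNAs (snoRNAs) and small Cajal body RNAs (scaRNAs) were followed in 30 single mouse blastocysts, each measured on its own Affymetrix array. A member was a gene whose symbol starts with Snora, Snord or Scarna and that had a transcript cluster (the probes the array pools into 1 value) carrying that symbol alone. This gave 68 members of the 30142 genes measured in the same way. Of these, 18 were box H/ACA RNAs (Snora), 44 were box C/D RNAs (Snord) and 6 were scaRNAs (Scarna). Another 52 symbols of these kinds stood only on clusters shared by several symbols and were not analysed here. Of the 10 RNAs of the Gas5 set and the 8 of the Snhg1 set, none was measured singly.

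Box H/ACA RNAs guide the conversion of uridine to pseudouridine, and box C/D RNAs guide ribose methylation, mostly in ribosomal RNA. Both act in particles with fixed proteins, Dkc1, Nop10, Nhp2 and Gar1 for box H/ACA and Fbl, Nop56, Nop58 and Snu13 for box C/D. ScaRNAs guide the same changes in spliceosomal small nuclear RNAs, in Cajal bodies. In mammals most of these RNAs are cut from the introns of other genes, often genes of ribosomal proteins. The preimplantation embryo builds up its nucleoli and ribosomes in the days before the blastocyst stage.

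A box H/ACA RNA ends in an ACA box close to its 3′ end and carries a hinge box (H box, ANANNA) between its hairpins. Snora19 is shown because it was the only member that lay inside an annotated miRNA hairpin, and so the only one for which the RefSeq tables used here held the bases. It lies at chr19:60774330-60774385 (GRCm38.p6, minus strand) inside Eif3a, a gene of a translation initiation factor, and the hairpin Mir3084-2 covers it at chr19:60774329-60774397. The stretch is given 5′ to 3′ with an ANANNA match that starts at base 25 and the ACA that starts at base 51 in capitals. The mature miRNAs are given with bases 2 to 8, the seed, in capitals.
Snora19: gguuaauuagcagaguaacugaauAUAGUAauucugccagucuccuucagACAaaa
mmu-miR-3084-3p: uUCUGCCAgucuccuucagac
mmu-miR-3084-5p: gUUGAAGGuuaauuagcagagu
The 3p miRNA at chr19:60774334-60774354 lies wholly within the Snora19 stretch and ends inside its ACA box, and the 5p miRNA at chr19:60774370-60774391 begins upstream of it. The marked ANANNA lies between the 2 miRNAs inside this single hairpin, so it is not shown to be a hinge between hairpins. As annotated the stretch is 56 nt long, against a box H/ACA median of 120.5 nt. The search for ANANNA was made on the strand of the RNA and found 2 such matches before the ACA of Snora19. Among 718 annotated mouse hairpins long enough, 47.6% held ANANNA in the same window, and 2.09% had ACA at the same distance from its end. A match is a description of letters and does not show a site in use.

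Of the blastocysts, 10 were twins grown in GM501, 10 were twins grown in SAGE 1-Step and 10 were controls grown in KSOM(aa), a medium for mouse embryos that contains amino acids. All came from B6C3F1 × CD1 matings in a stimulated cycle, and as zygotes and young 2-cell embryos all were held in KSOM(aa). Each twin grew from a single blastomere of a divided 2-cell embryo, 1 blastomere in GM501 and its sister in SAGE 1-Step, which are media of human assisted reproduction. Controls were left whole and cultured singly in KSOM(aa). All blastocysts were taken at 4 days post coitum after 96 h of culture. Per the labels a twin had some 40 to 50 cells and a control some 80. Medium, bisection and cell number therefore changed together between twins and controls and cannot be told apart.

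The values are log2 signals on a relative scale, so levels of different genes are not compared. Array medians over all genes were 5.02 to 5.56 in GM501 twins and 4.99 to 5.55 in SAGE twins, against 5.03 to 5.11 in KSOM controls. Both twins of pairs 1 to 6 lay above every control (5.23 to 5.56), while pairs 7 to 10 lay at 4.99 to 5.41, the SAGE twin of pair 8 being the highest of these. No label names these 2 sets of pairs as a batch; they are sets read from the array medians. The main counts and most named members are therefore given as deposited, after subtraction of each array's median ("centred"), and within each set of pairs. As labelled, the samples were blastocysts. Marker means over all arrays ran from 7.17 to 17.8 for trophectoderm, from 5.05 to 13.1 for inner cell mass and from 5.32 to 11.8 for primitive endoderm. The means of cumulus, oviduct and blood markers were at or under 5.97. The lowest inner cell mass and primitive endoderm markers thus lay no higher than the highest of these.

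Box H/ACA RNAs stood, on average, higher relative to box C/D RNAs in twins than in controls, with overlap between all groups. The median of the 18 box H/ACA signals minus the median of the 44 box C/D signals, taken within each array, was 1.24 ± 0.80 in GM501 twins and 0.80 ± 0.75 in SAGE twins, against 0.42 ± 0.36 in KSOM controls (SD, n = 10 each). A shift of the whole array leaves this difference as it is, so it is the same as deposited and centred. It ran from 0.03 to 2.15 in GM501 twins, from −0.83 to 1.74 in SAGE twins and from −0.04 to 0.94 in KSOM controls. No test was made of these medians, since the members were chosen with results of these data known.

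The box H/ACA median was 8.58 ± 0.35 in GM501 twins and 8.64 ± 0.83 in SAGE twins, against 8.19 ± 0.25 in KSOM controls. The box C/D median was 7.34 ± 0.78 in GM501 twins and 7.84 ± 0.38 in SAGE twins, against 7.76 ± 0.39 in KSOM controls. Centred, the box H/ACA medians were 3.32 ± 0.42, 3.38 ± 0.90 and 3.11 ± 0.26, and the box C/D medians 2.08 ± 0.91, 2.58 ± 0.50 and 2.69 ± 0.39, in the same order of groups (SD, n = 10 each). The SAGE values held 1 low blastocyst, the twin of pair 8. Without it the box H/ACA median of SAGE twins was 8.88 ± 0.40, the centred one 3.63 ± 0.46 and the class difference 0.98 ± 0.52 (SD, n = 9). When each member was first taken as its deviation from its KSOM mean, the box H/ACA median was 0.29 ± 0.27 in GM501 twins and 0.43 ± 0.26 in SAGE twins, against −0.03 ± 0.18 in KSOM controls. On that scale the box C/D medians of the groups lay close together, at −0.08 ± 0.26, −0.04 ± 0.24 and −0.03 ± 0.25 in the same order. The class difference was then 0.37 ± 0.29 in GM501 twins and 0.47 ± 0.32 in SAGE twins, against 0.01 ± 0.24 in KSOM controls, so the order of the media turned.

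The difference between the classes was larger, on average, in pairs 1 to 6 than in pairs 7 to 10. It was 1.36 ± 0.56 over the 12 twins of pairs 1 to 6 and 0.51 ± 0.83 over the 8 twins of pairs 7 to 10, against 0.42 ± 0.36 in KSOM controls. On the scale of deviations the class difference was 0.62 ± 0.20 in pairs 1 to 6 and 0.12 ± 0.10 in pairs 7 to 10, while controls lie near 0 by construction (0.01 ± 0.24). All 12 twins of pairs 1 to 6 had a positive value on that scale (0.15 to 0.92), and the twins of pairs 7 to 10 lay between −0.03 and 0.23. The difference did not follow the array median in every twin. The SAGE twin of pair 8 had a high array median (5.41) but the lowest class difference of all arrays (−0.825). On the scale of deviations it had −0.0045. Without pair 8 the class difference of pairs 7 to 10 was 0.67 ± 0.75 over 6 twins, and 0.14 ± 0.10 on the scale of deviations.

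**Figure D1:**
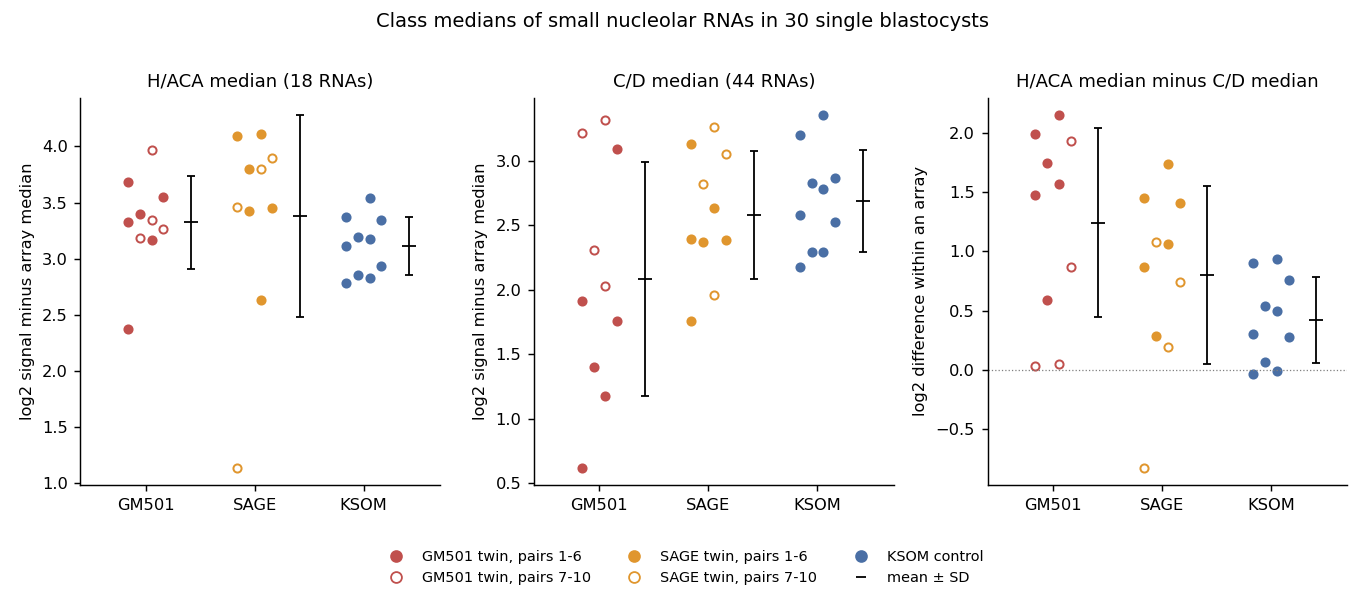
Class medians per array in log2 units, with 1 point per blastocyst and bars for the mean ± SD of each group (n = 10): box H/ACA median minus array median, box C/D median minus array median, and box H/ACA minus box C/D. Filled red and orange points are twins of pairs 1 to 6, open points twins of pairs 7 to 10 and blue points controls; the GM501 twins reach 2.15 in the last panel, against at most 0.94 in KSOM controls.

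Called members were few, and their counts are set beside the shares of all genes. Members also spread more within a group than genes at large (median SD 0.742 against 0.192 in KSOM controls). A shift of equal size is therefore harder to call among members. With the 2 twins of each embryo averaged, so that each embryo counts once, 10 of the 68 members were higher and 4 lower than in KSOM controls (limma, adjusted p under 0.05), against 33% of all genes called higher and 8.17% called lower. Of the box H/ACA RNAs, 8 of 18 rose and 0 fell. Of the box C/D RNAs, 2 of 44 rose and 4 fell, and of the 6 scaRNAs none passed the test in either direction. The median difference was 0.46 for box H/ACA, −0.10 for box C/D and −0.38 for scaRNAs, and 0.19 for all genes. The 8 of 18 box H/ACA rises stand beside 33% of all genes, and the 2 box C/D rises lay below that share. Among the 8 are Snora73a and Snora73b, near-identical copies that may share signal and so may not be separate rises. The 4 box C/D falls of 44 were close to the 8.17% of all genes.

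After centring, the called members among pair means were 1 higher and 3 lower, all box C/D, against 3.06% of all genes higher and 8.54% lower. The centred medians were 0.28 for box H/ACA, −0.29 for box C/D and −0.57 for scaRNAs, and 0.00 for all genes. As deposited, 16 members were higher and 9 lower in pairs 1 to 6 alone (all genes 60.1% and 13.7%), and 1 was higher and 0 lower in pairs 7 to 10 alone (0.249% and 0.229%). Centred, the counts were 9 and 12 in pairs 1 to 6 (15% and 22.1%) and 0 and 0 in pairs 7 to 10 (0.0829% and 0.0431%). As deposited, the median difference of box H/ACA RNAs was 0.40 in pairs 1 to 6 and 0.04 in pairs 7 to 10, and that of box C/D RNAs −0.16 and 0.22. Centred, it was 0.10 and 0.03 for box H/ACA and −0.46 and 0.20 for box C/D. The box H/ACA value of pairs 7 to 10 rested on pair 8: over pairs 7, 9 and 10 the box H/ACA median was 0.34 and the box C/D median 0.22, as deposited and with no test.

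Taken by medium, GM501 twins had 2 members higher and 2 lower than KSOM controls (all genes 14.1% and 5.02%). SAGE twins had 4 higher and 2 lower (19.8% and 6.44%). Centred, these counts were 1 and 1 in GM501 twins (1.21% and 4.42%) and 1 and 2 in SAGE twins (1.52% and 6.43%). The median difference of box H/ACA RNAs was 0.30 in GM501 twins and 0.47 in SAGE twins, and that of box C/D RNAs −0.07 and −0.04, each against the same 10 controls. No member had twins and controls that did not overlap, as deposited. Among all genes such groups were found for 0.109% higher and 0.0597% lower in pair means, for 0.0796% and 0.0664% in GM501 twins, and for 0.0763% and 0.0664% in SAGE twins. In whole embryos, fewer cells of a type and less of an RNA per cell cannot be told apart.

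**Figure D2:**
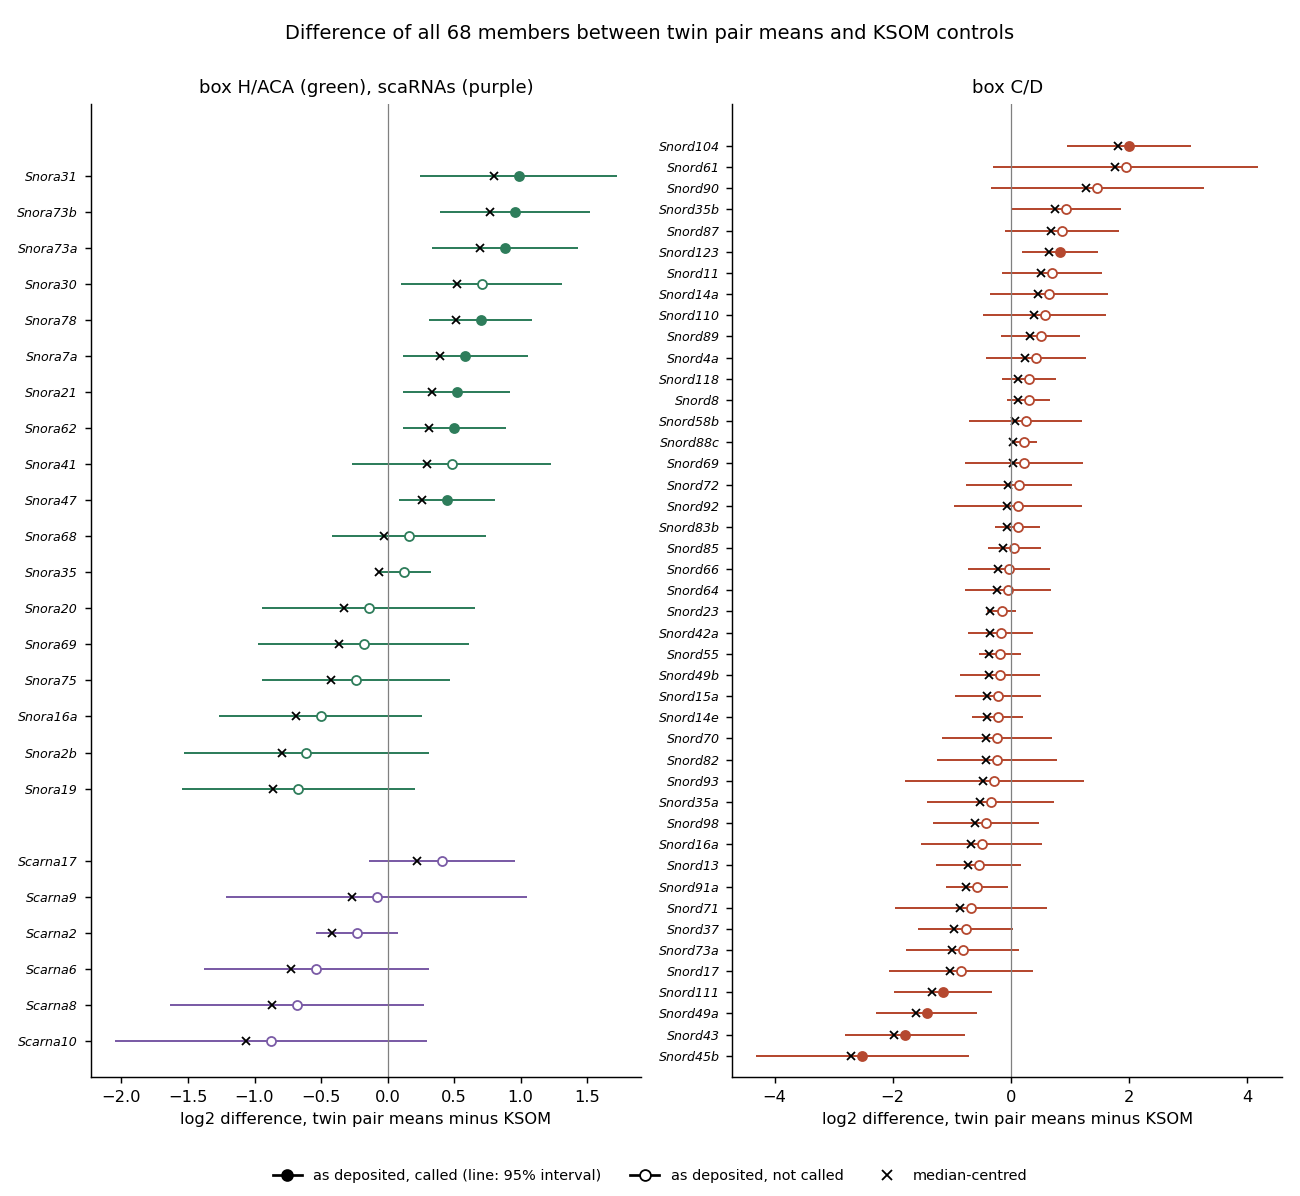
Difference of twin pair means from KSOM controls (log2) for all 68 members, with limma's 95% interval, in 3 classes; filled points passed an adjusted p of 0.05 and crosses give the centred difference. The called box H/ACA points, 8 in number, all lie to the right of 0, among them the near-identical Snora73a and Snora73b. Called box C/D points lie on both sides.

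Snord104 rose furthest of the called members in pair means. It is a box C/D RNA that guides methylation of large-subunit ribosomal RNA, and lies at chr11:106500991-106501063 inside the uncharacterised Gm36220. Its lowest, median and highest signals were 9.55, 12.71 and 13.54 in GM501 twins and 9.70, 11.84 and 13.47 in SAGE twins, against 8.73, 10.10 and 10.74 in KSOM controls. The highest twins lay far above every control, but the lowest twins lay among the controls. Pair means were 2.00 ± 0.50 higher than controls (SE; limma adjusted p = 0.0126; centred 1.82, adjusted p = 0.0222). All 12 twins of pairs 1 to 6 lay at 11.04 to 13.54, above every control, whereas those of pairs 7 to 10 lay at 9.55 to 10.88. The difference was 3.15 ± 0.30 in pairs 1 to 6 (limma adjusted p = 5.22e-07), whereas it was 0.28 ± 0.34 over pairs 7 to 10 (adjusted p = 0.884). GM501 twins alone were higher by 2.10 ± 0.52 (limma adjusted p = 0.0205) and SAGE twins by 1.91 ± 0.52 (adjusted p = 0.0247).

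The box H/ACA RNAs Snora73a and Snora73b (U17) take part in the cleavage of the precursor of small-subunit ribosomal RNA. They lie at chr4:132352775-132352979 and chr4:132352322-132352526 in Snhg3, a host gene of snoRNAs. They are near-identical copies, and the array's clusters for them were not placed on a chromosome, so signal may be shared between them. Snora73b had 10.90, 12.88 and 13.75 in GM501 twins and 11.37, 12.63 and 14.37 in SAGE twins, against 10.98, 11.56 and 12.47 in KSOM controls (lowest, median, highest). Its medians were higher in both twin groups, with overlap at the low end. Pair means were 0.96 ± 0.27 higher for Snora73b (limma adjusted p = 0.0178; centred 0.77, 0.0685) and 0.88 ± 0.26 higher for Snora73a (adjusted p = 0.0202; centred 0.70, 0.0833), so neither call was kept after centring. In pairs 1 to 6 the differences were 1.26 and 1.21, both called, and in pairs 7 to 10 they were 0.51 and 0.39 and not called. SAGE twins passed the test for both, by 1.09 ± 0.28 for Snora73b and 1.03 ± 0.29 for Snora73a (limma adjusted p = 0.0217 and 0.0270). GM501 twins did not pass it for either, and no member was called between the 2 media.

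Snora78, a box H/ACA RNA at chr17:24719676-24719832 where Rps2 and Snhg9 overlap, had the smallest adjusted p of its class in pair means. Its signals were 7.92, 8.54 and 10.03 in GM501 twins and 8.04, 8.91 and 9.55 in SAGE twins, against 7.44, 8.15 and 8.66 in KSOM controls (lowest, median, highest). All 10 pair means lay above the controls' median. The difference was 0.70 ± 0.18 (limma adjusted p = 0.0147; centred 0.51, adjusted p = 0.0779), and it was of like size in pairs 7 to 10 (0.62) and in pairs 1 to 6 (0.75). SAGE twins alone were higher by 0.79 ± 0.20 (limma adjusted p = 0.0199; centred 0.60, adjusted p = 0.0703).

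Snora30, a box H/ACA RNA at chr7:127527897-127528003 in Srcap, the gene of a chromatin remodeller, rose in GM501 twins. It had 8.10, 9.04 and 9.32 in GM501 twins and 6.38, 8.75 and 10.19 in SAGE twins, against 7.21, 7.86 and 9.17 in KSOM controls (lowest, median, highest). All 10 GM501 twins exceeded the controls' median, and SAGE twins spread over both sides of it. The SAGE twins of pairs 1 to 6 lay at 6.38 to 8.93 (mean 7.72). Those of pairs 7 to 10 lay at 8.97 to 10.19 (mean 9.67), higher on average than the GM501 twins of that set (mean 8.90). GM501 twins were higher by 0.92 ± 0.22 (limma adjusted p = 0.0193; centred 0.74, adjusted p = 0.057), with 0.89 in pairs 7 to 10 and 0.94 in pairs 1 to 6. In pair means it was 0.71 ± 0.29 (adjusted p = 0.0523) and was not called.

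Snora31 at chr14:75847923-75848034 in Tpt1, a highly expressed gene of translational control, had signals of 9.33, 11.04 and 12.66 in GM501 twins and 8.95, 11.53 and 13.17 in SAGE twins, against 9.65, 10.30 and 11.14 in KSOM controls (lowest, median, highest). Its groups overlapped, with the highest twins above every control. Pair means were 0.98 ± 0.35 higher (limma adjusted p = 0.0349; centred 0.80, adjusted p = 0.117), with 1.60 in pairs 1 to 6 and 0.07 in pairs 7 to 10. Over pairs 7, 9 and 10 the difference was 0.49, with no test. Another 4 box H/ACA RNAs with smaller differences, named after their values were seen, also rose in pair means: Snora21 by 0.52, Snora62 by 0.50, Snora7a by 0.58 and Snora47 by 0.45 (limma adjusted p from 0.0364 to 0.0437). All 4 were called in pairs 1 to 6 and none in pairs 7 to 10, with 0.86 and 0.01 for Snora21, 0.70 and 0.21 for Snora62, 0.76 and 0.33 for Snora7a, and 0.47 and 0.41 for Snora47. Snora21, Snora62 and Snora7a lie in the ribosomal protein genes Rpl23, Rpsa and Rpl32. None of the 8 box H/ACA calls was kept after centring over all pairs. Centred and without pair 8, whose SAGE twin had the lowest box H/ACA median, 4 members were called higher and 3 lower (3.72% and 8.19% of all genes), and the higher ones included Snora31 (1.04), Snora73b (0.90) and Snora73a (0.81).

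Snord43 fell. This box C/D RNA guides methylation of small-subunit ribosomal RNA and lies at chr15:80082859-80082906 in Rpl3, the gene of a large-subunit ribosomal protein. It had 4.29, 5.15 and 7.57 in GM501 twins and 4.84, 5.36 and 8.96 in SAGE twins, against 5.17, 7.51 and 8.85 in KSOM controls (lowest, median, highest). Most twins lay near the lowest control, with single twins as high as controls. It fell by 1.79 ± 0.48 in pair means (limma adjusted p = 0.0164) and by 1.98 centred (adjusted p = 0.0209), and GM501 twins alone fell by 2.08 ± 0.46 (adjusted p = 0.0154). The sign was the same in pairs 1 to 6 (−2.17) and in pairs 7 to 10 (−1.23).

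Snord49a, which guides methylation of large-subunit ribosomal RNA, lies at chr11:62603460-62603521 in the non-coding 2410006H16Rik. It had 4.56, 6.96 and 8.27 in GM501 twins and 4.89, 6.21 and 8.22 in SAGE twins, against 7.16, 7.36 and 9.44 in KSOM controls (lowest, median, highest). Twins reached far below the lowest control. It fell by 1.42 ± 0.40 in pair means (limma adjusted p = 0.0184) and by 1.61 centred (adjusted p = 0.0263), with −1.58 in pairs 1 to 6 and −1.19 in pairs 7 to 10. SAGE twins alone fell by 1.68 ± 0.41 (limma adjusted p = 0.0191). Snord49b, from the same host, had group medians of 8.55 in GM501 twins and 9.08 in SAGE twins, against 8.83 in KSOM controls.

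Snord111, which guides methylation of large-subunit ribosomal RNA, lies at chr8:110838535-110838598 in Sf3b3, the gene of a splicing factor subunit. It had 4.41, 4.80 and 8.78 in GM501 twins and 4.28, 4.49 and 6.04 in SAGE twins, against 3.97, 6.29 and 7.82 in KSOM controls (lowest, median, highest). All 10 SAGE twins lay below the controls' median, while 1 GM501 twin exceeded every control. SAGE twins fell by 1.41 ± 0.37 (limma adjusted p = 0.0235; centred −1.60, 0.0241), and pair means fell by 1.16 ± 0.39 (adjusted p = 0.0295; centred −1.34, 0.0441). The pair means had −1.47 in pairs 1 to 6 and −0.69 in pairs 7 to 10.

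Snord45b differed widely between embryos. It guides methylation of small-subunit ribosomal RNA and lies at chr3:153910567-153910611 in Rabggtb, the gene of a prenyltransferase subunit. It had 3.31, 6.48 and 10.46 in GM501 twins and 3.38, 4.89 and 11.19 in SAGE twins, against 7.17, 8.59 and 10.77 in KSOM controls (lowest, median, highest). The 10 twins of pairs 1 to 5 lay at 3.31 to 5.65, below every control, those of pair 6 at 9.67 and 5.94, and the 8 twins of pairs 7 to 10 at 7.31 to 11.19, within or above the range of controls. Pair means fell by 2.51 ± 0.86 over all pairs (limma adjusted p = 0.0301; centred −2.70, 0.0587). The difference was −4.36 in pairs 1 to 6 and 0.25 ± 0.53 in pairs 7 to 10 (adjusted p = 0.949).

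Snora19, the RNA that shares its bases with miR-3084, passed no test over all pairs. It had 4.54, 6.68 and 9.30 in GM501 twins and 4.76, 7.29 and 9.18 in SAGE twins, against 6.13, 7.65 and 8.89 in KSOM controls (lowest, median and highest log2 signal of 10 blastocysts). Twins reached both below and above the controls. The means of the 2 twins of each embryo differed from controls by −0.67 ± 0.42 (SE; limma adjusted p = 0.178). In pairs 1 to 6 alone Snora19 fell by 1.02 (limma adjusted p = 0.0448).

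Snord123 at chr15:32241845-32241932 in the non-coding Snhg18 was the other box C/D RNA that rose. It had 5.60, 6.63 and 8.45 in GM501 twins and 5.30, 7.16 and 9.11 in SAGE twins, against 5.40, 6.09 and 7.60 in KSOM controls (lowest, median, highest). All 10 pair means exceeded the controls' median, though single twins overlapped with controls. The difference was 0.84 ± 0.30 (limma adjusted p = 0.0356; centred 0.65, adjusted p = 0.144), with 1.23 in pairs 1 to 6 and 0.24 in pairs 7 to 10.

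Snord42a, singled out after its values were seen, passed the test as deposited with opposite signs in the 2 sets of pairs. This guide of small-subunit ribosomal RNA methylation lies at chr11:78181302-78181346 in Rpl23a. The twins of pairs 1 to 6 had 11.60, 12.19 and 13.49 and those of pairs 7 to 10 had 13.22, 13.90 and 14.32, against 12.55, 13.15 and 13.59 in KSOM controls (lowest, median, highest). Its pair means were 0.76 ± 0.16 lower than controls in pairs 1 to 6 (limma adjusted p = 0.000536), but 0.71 ± 0.15 higher over pairs 7 to 10 (adjusted p = 0.0487). After centring no member was called in pairs 7 to 10, so the rise there did not keep its call. Centred, Snord42a ran from 8.23 to 9.25 in those twins, against 7.49 to 8.51 in KSOM controls. Snord4a, from the same host and at chr11:78181687-78181756, had medians of 13.39 in twins of pairs 1 to 6, 13.22 in twins of pairs 7 to 10 and 12.60 in KSOM controls.

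**Figure D3:**
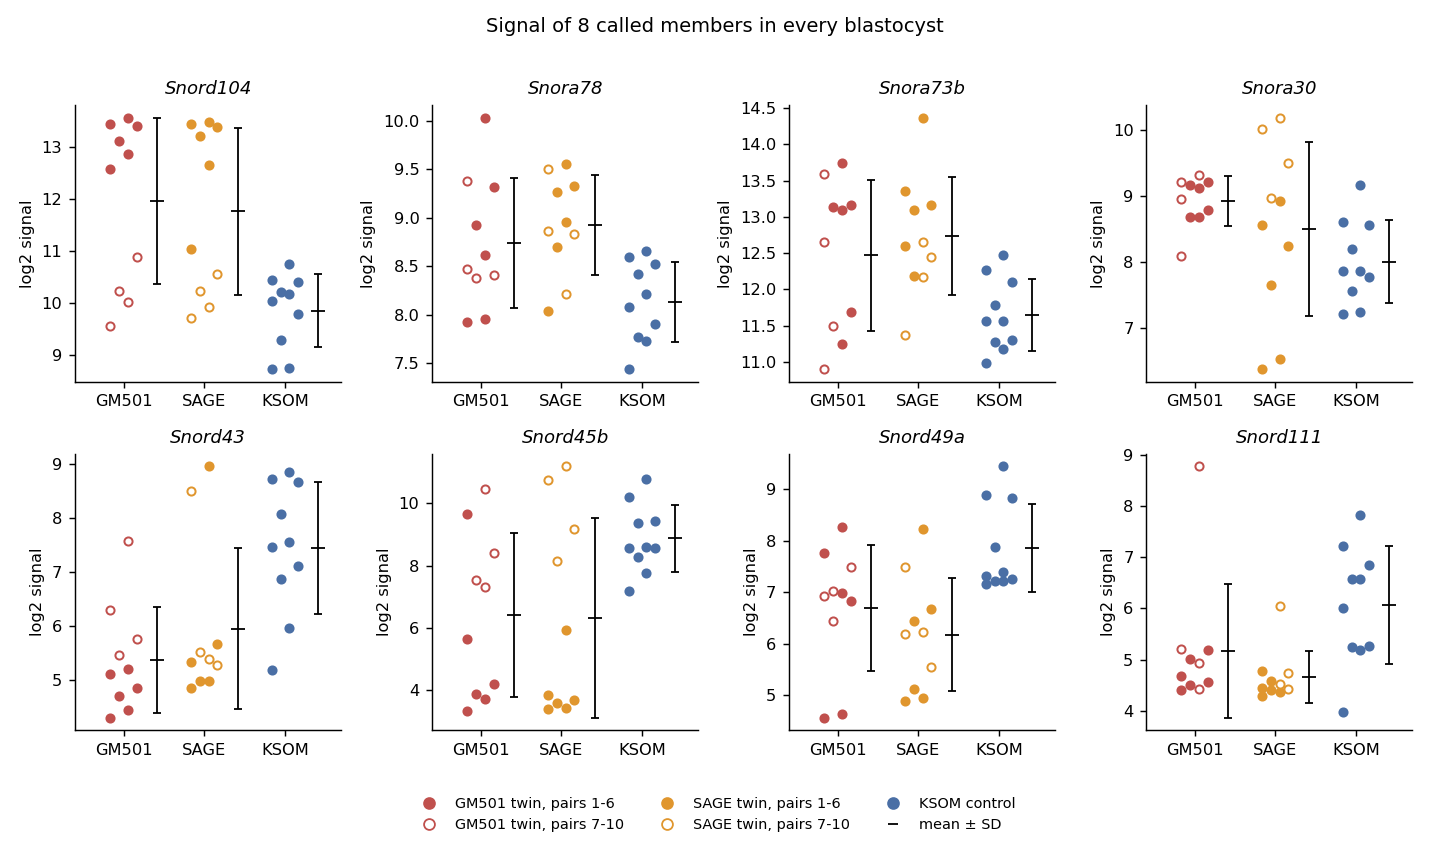
Log2 signals of 8 named members in every blastocyst, with 1 point per array and bars for the mean ± SD of GM501 twins, SAGE twins and KSOM controls (n = 10 each); filled red and orange points are twins of pairs 1 to 6, open points twins of pairs 7 to 10 and blue points controls. For Snord104 the filled twin points sit at 11.04 or above and the open points at 10.88 or below, and for Snord45b the open points sit at 7.31 or above.

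The 6 scaRNAs passed no test in pair means, and 5 of the 6 differences were below 0. Scarna10, Scarna6, Scarna8 and Scarna9 guide changes in spliceosomal RNAs, as known from human, and their differences in pair means were −0.88 ± 0.56, −0.54 ± 0.40, −0.68 ± 0.45 and −0.08 ± 0.54 (SE). Scarna17 had 0.41 ± 0.26. The adjusted p of limma lay between 0.180 and 0.902 for all 6. Scarna2, a guide for the U2 small nuclear RNA at chr3:108554342-108554402 and the only scaRNA outside an annotated host, had −0.23 ± 0.14 (limma adjusted p = 0.180). Its 12 twins of pairs 1 to 6 had 5.09 to 5.77 and its 8 twins of pairs 7 to 10 had 5.88 to 6.59, against 5.73 to 6.39 in KSOM controls. It fell in pairs 1 to 6 by 0.50 ± 0.12 (limma adjusted p = 0.00138), and stood 0.18 above controls in pairs 7 to 10 without passing the test. The median over the 6 scaRNAs was 6.09 ± 0.89 in GM501 twins and 5.79 ± 0.46 in SAGE twins, against 6.60 ± 0.60 in KSOM controls (SD, n = 10 each). The 12 twins of pairs 1 to 6 had 5.59 ± 0.40, while the 8 twins of pairs 7 to 10 had 6.46 ± 0.77. Of the 6 differences, 5 were below 0 in pairs 1 to 6 and 3 in pairs 7 to 10, where Scarna9 had 0.53.

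Apart from the Snora73 copies, the processing and imprinted RNAs on the list of named members passed no test in pair means over all pairs. Snord118 (U8), needed for large-subunit rRNA maturation, had 0.31 ± 0.21 (SE; limma adjusted p = 0.213). Snord13, which in human directs the acetylation of small-subunit rRNA, had −0.55 ± 0.34 (adjusted p = 0.180). In pairs 1 to 6 alone it fell by 1.19 (limma adjusted p = 0.00222), whereas it had 0.42 in pairs 7 to 10 and was not called. Both lie outside an annotated host gene, as do Scarna2 and Snord89. Snord14a and Snord14e, 2 copies of U14, which acts in small-subunit rRNA processing, had 0.65 ± 0.47 and −0.22 ± 0.20 (adjusted p = 0.247 and 0.339). Snord35a of the Rpl13a set had −0.34 ± 0.51 and Snord64 of the imprinted Snhg14 locus −0.05 ± 0.34 (adjusted p = 0.577 and 0.909). Of the Rpl13a set 1 of 4 was measured.

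Members of these classes varied more between blastocysts of 1 group than genes at large. The median within-group SD over the 68 members was 1.18 in GM501 twins and 1.19 in SAGE twins, against 0.742 in KSOM controls. Over all genes it was 0.355, 0.351 and 0.192 in the same order, and over the upper 60% of genes by mean level 0.461, 0.475 and 0.254. The 589 miRNA genes, also short, had 0.465 in SAGE twins and 0.245 in KSOM controls. Among controls, box H/ACA RNAs had a median SD of 0.483, box C/D RNAs of 0.808 and scaRNAs of 1.19.

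Over all 30 arrays the median range was 3.71 log2 units for box H/ACA, 5.05 for box C/D and 4.03 for scaRNAs. A range over 4 units was seen in 7 of 18 box H/ACA, 28 of 44 box C/D and 3 of 6 scaRNAs. Box C/D RNAs were shorter as annotated, with a median of 68 nt against 120.5 nt for box H/ACA and 66.5 nt for scaRNAs. Snord61 and Snord90, chosen after their values were seen, swung widely. Snord61 ran from 3.08 to 11.26, with 14 arrays under 5 and 12 over 8, and Snord90 ran from 3.99 to 12.02, with 12 under 5 and 11 over 8. Snord16a was above 8 in 29 arrays and at 3.42 in 1 GM501 twin. The cause of such swings in single arrays was not tested.

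The media themselves gave no called member. With the embryo as a block, 0 of the 68 members and 0 of all 30142 genes (0%) differed between GM501 and SAGE twins (limma), and 3 of 68 members and 973 of all genes had an unadjusted p under 0.05. Snord92, inside Wdr43, had the smallest p among members. It had 6.56, 9.81 and 11.25 in GM501 twins and 4.42, 8.47 and 10.78 in SAGE twins (lowest, median, highest) and was 1.45 ± 0.50 higher in GM501 (SE; 9 of 10 pairs; limma adjusted p = 1). Snord14a, Snord70, Snord83b, Snord73a and Snord49a followed, with −0.75, −1.41, 0.48, −1.54 and 0.52, and GM501 twins were the higher ones in 2, 2, 7, 2 and 7 of 10 pairs. The 95% intervals of the members reached 0.190 to 2.24 log2 units to either side, with a median of 0.837, and 26 of 68 lay wholly within ±1. For the other 42 a change of 1 log2 unit between media lay within the interval.

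The share of members that differed by embryo of origin was close to that of all genes. The embryo of origin passed limma's F test for 12 of 68 members, with medium in the model, against 19% of all genes (10 of 68 centred, against 12.2%). Snord104 led with F = 12.9 (adjusted p = 0.00331), its pair means running from 9.86 to 13.41 and its co-twins differing by a median of 0.545. Snord89, a box C/D RNA at chr1:39548747-39548840, followed with F = 12.3 (adjusted p = 0.00375), pair means of 8.81 to 10.95 and a median co-twin difference of 0.260. Snord14a, Scarna2, Snord17 and Snord45b had F = 9.33, 8.12, 7.51 and 7.22 (adjusted p = 0.00804, 0.0117, 0.0145 and 0.0162). Co-twins differed by a median of 0.795 for Snord14a, 0.240 for Scarna2, 0.375 for Snord17 and 2.04 for Snord45b.

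Centred, Snord89 led with F = 21.4 (limma adjusted p = 0.00176), followed by Scarna2 with 18.5 (0.00235). Both co-twins of a pair always fall in the same set of pairs. Within pairs 1 to 6 alone and within pairs 7 to 10 alone, 0 of 68 members passed (0.126% and 0.0398% of all genes), while 10 and 18 members, and 3407 and 2429 of all genes, had an unadjusted p under 0.05.

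**Figure D4:**
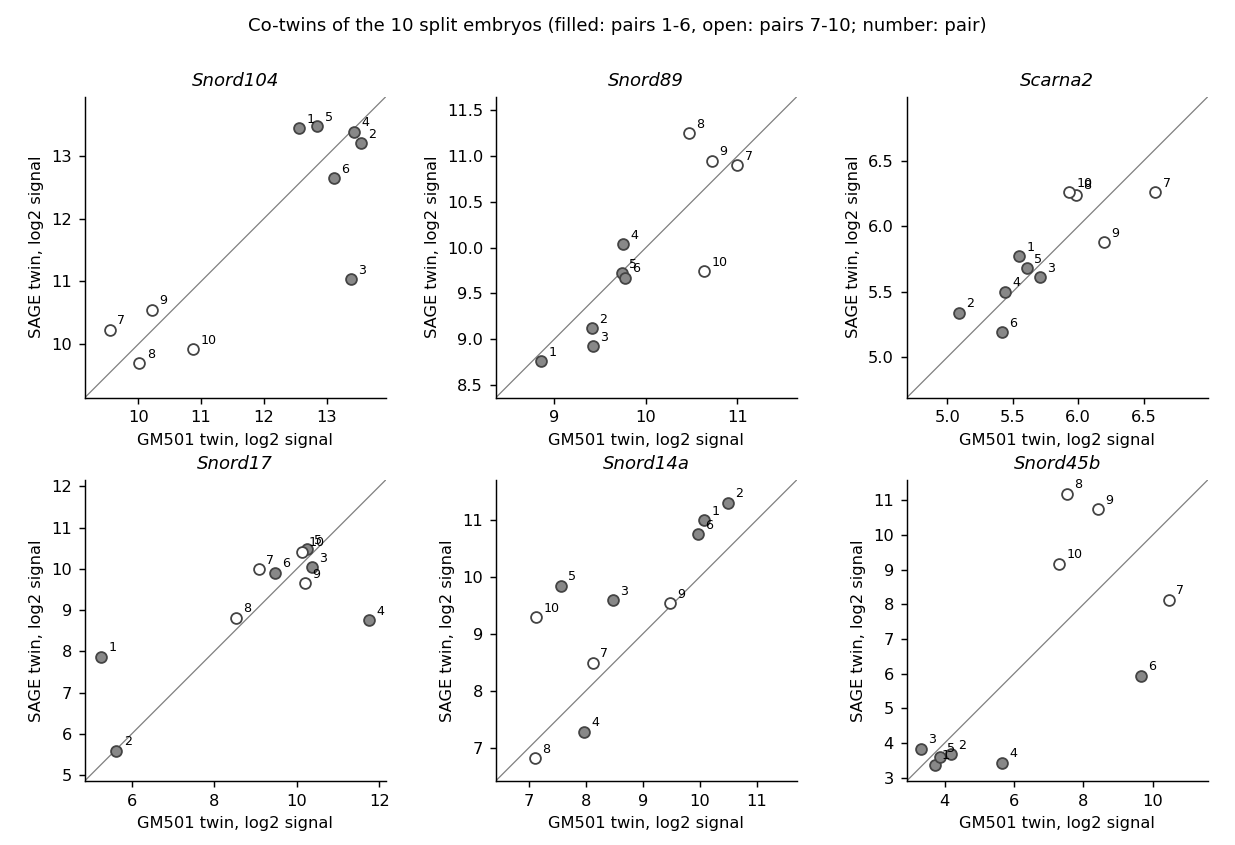
Log2 signal of the GM501 twin (x axis) and of its SAGE co-twin (y axis) for the 6 members with the smallest p for embryo of origin; numbers name the pair and the line marks equal signals. Pair means of Snord104 span 9.86 to 13.41, and those of Snord45b 3.55 to 9.59.

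Hosts were compared because 64 of the 68 members lie inside another annotated gene, 19 of them inside a ribosomal protein gene. A probe set inside an intron can read the host's unspliced RNA as well as the snoRNA, and the annotation used here gives no strand. For 31 members with exactly 1 host, that host was itself measured (29 hosts). The member and its host differed from KSOM controls in the same direction in pair means for 23 of 31 as deposited and 21 of 31 centred, with Pearson's r of 0.471 across members, which share arrays and are not replicates. Of the hosts, 4 were called higher and 7 lower (all genes 33% and 8.17%), with a median difference of −0.12.

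Of the called members with a measured host, Snord111 and Sf3b3 both fell, by 1.16 and 1.23. Snora31 rose by 0.98 and Tpt1 by 0.19, and Snord123 rose by 0.84 and Snhg18 by 0.51. Snora62 rose by 0.50 while Rpsa fell by 0.40. Snora47 rose by 0.45, and its host Zbed3 had 0.19 ± 0.14 and was not called. Hosts of Snord104, Snord43, Snord45b, Snord49a and the Snora73 copies were not measured as single-symbol genes.

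**Figure D5:**
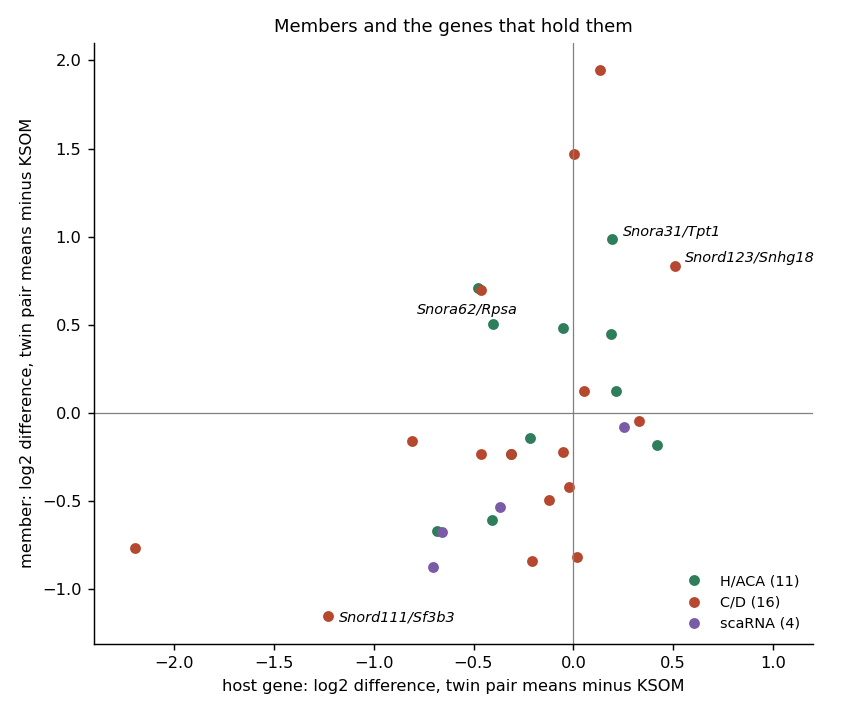
Difference of twin pair means from KSOM controls (log2) for 31 members (y axis) and for the single measured host gene of each (x axis); the lines mark 0 and the colours the classes. Members run from −1.16 for Snord111 to 1.95 for Snord61, and Snora62 and Rpsa lie on opposite sides of 0.

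Of 6 pairs of members from the same host, the near-identical pair alone correlated past the test. Over the 10 KSOM controls, Snora73a and Snora73b had Pearson's r = 0.970 and Spearman's rho = 0.967. The permutation p was 2e-05 for r and 5e-05 for rho, and 0.00012 and 0.0003 adjusted over the 6 pairs. Without the 2 arrays farthest from the median of the first-named member, r was 0.925. For Snord49a with Snord49b, Snora75 with Snord82, Snord11 with Snord70, Snord42a with Snord4a, and Snord43 with Snord83b, r was −0.01, 0.215, 0.189, 0.07 and 0.361 and rho was 0.155, 0.115, 0.237, 0.305 and 0.426 (adjusted permutation p from 0.659 to 0.967). Without the 2 arrays farthest from the first-named member's median, r was 0.450, 0.01, −0.10, 0.589 and 0.168 in the same order. Each of these 5 pairs lies inside a single gene, and with 10 arrays a moderate correlation could be missed.

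Transcripts of measured genes for proteins of the box C/D particle were lower in twins. Of this list 3 were measured and all 3 fell in pair means, beside 8.17% of all genes. Nop56 and Snu13 were not measured as single-symbol genes. Fbl, the methyltransferase, fell by 0.66 ± 0.16, Nop58, its scaffold, by 0.46 ± 0.14, and Rrp9, which binds the U3 snoRNA, by 0.94 ± 0.17 (limma adjusted p = 0.0109, 0.0211 and 0.0039). They also fell centred, by 0.85, 0.65 and 1.12. In pairs 7 to 10 the differences were −0.30, −0.13 and −0.40 and none was called.

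Transcripts of genes for proteins of the box H/ACA particle did not move one way. Of 6 measured, Nop10 rose by 0.78 ± 0.28 (limma adjusted p = 0.036) and the assembly factor Naf1 fell by 0.47 ± 0.19 (adjusted p = 0.0473), with a list median of 0.03. Centred, Nop10 was at 0.59 and not called (adjusted p = 0.125), and Naf1 fell by 0.66 (adjusted p = 0.0385). The pseudouridine synthase Dkc1 had 0.16, Nhp2 0.13, Gar1 −0.08 and Shq1 −0.13, none called. Of 10 snoRNP assembly factors 0 rose and 2 fell, beside 33% and 8.17% of all genes in pair means. The 2 were Ruvbl2, lower by 0.60 ± 0.14, and Pih1d1, lower by 0.64 ± 0.15 (limma adjusted p = 0.0107 and 0.011). Of 9 Cajal body genes 1 fell, the elongation factor gene Ell, by 0.92 ± 0.19 (adjusted p = 0.00682). Of 9 non-coding host genes, Snhg14 and Snhg18 rose, by 0.33 ± 0.11 and 0.51 ± 0.16 (adjusted p = 0.0257 and 0.0231), and none was called centred.

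Other small non-coding RNAs passed no test in pair means over all pairs (0 of 14, beside 33% of all genes higher and 8.17% lower). In pairs 7 to 10 alone, where 1 snoRNA was called, 3 of these 14 rose, beside 0.249% of all genes. Rmrp, the RNA of a ribonuclease that cuts pre-rRNA, rose by 1.22 ± 0.24, and the Y RNAs Rny1 and Rny3 by 1.56 ± 0.30 and 1.48 ± 0.22 (limma adjusted p = 0.0413, 0.0404 and 0.0144). Over all pairs their differences were 0.50, 0.38 and 0.07. In pairs 1 to 6 alone 1 of the 14 rose and 3 fell, beside 60.1% and 13.7% of all genes. Rnu11 of the minor spliceosome rose by 0.95 ± 0.16 (limma adjusted p = 0.000117). Rpph1, the RNA of ribonuclease P, fell by 0.77 ± 0.11, Rn7sk, which holds back a transcription elongation factor, by 0.65 ± 0.06, and Rny3 by 0.86 ± 0.16 (limma adjusted p = 2.87e-05, 3.68e-07 and 0.000269).

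Markers of the blastocyst's own cell types moved in the same comparison. All 7 trophectoderm markers and 5 of 6 inner cell mass markers were lower in pair means (limma, medians −0.74 and −0.85). So were 2 of 3 primitive endoderm markers, beside 8.17% of all genes called lower. None of the first 2 lists was called in pairs 7 to 10. The log2 of the summed trophectoderm markers was 17.6 to 18.6 in GM501 twins and 16.9 to 18.7 in SAGE twins, against 18.5 to 18.7 in KSOM controls, and that of inner cell mass markers 10.9 to 14.9, 11.3 to 13.6 and 13.2 to 15.3. Among markers of cells from outside the embryo, 0 were called higher centred (3.06% of all genes). As deposited, 2 of 4 cumulus, 1 of 2 oviduct and 2 of 2 blood markers were called higher (33% of all genes). Their summed log2 levels were 6.62 to 8.03, 5.32 to 6.06 and 5.62 to 6.17 in GM501 twins for cumulus, oviduct and blood. They were 6.52 to 7.61, 5.53 to 6.40 and 5.49 to 6.16 in SAGE twins, and 6.75 to 7.61, 5.42 to 5.88 and 5.34 to 5.64 in KSOM controls. Their part in the snoRNA differences was not tested.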

How the data were processed

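Total RNA of single blastocysts was amplified with the GeneChip WT Pico kit, per the labels' protocols. The deposited values are log2 signals of 65956 transcript clusters per array, which the authors made with RMA in Affymetrix Expression Console on mm10, per the submitters' processing notes (versions not given in the sources used here). The base of the logarithm was read from the values, which ran from 2.2 to 19.3. Clusters were named through the platform annotation and the RefSeq gene table of GRCm38.p6, and 827 symbols were updated. A gene was listed for 32750 clusters and a single symbol for 30604. Each gene was read from its brightest cluster (highest mean of 30 arrays), which left 30142 genes. Of the 72 member clusters 68 remained. No 2 members had identical values. A cluster of 1 member (Snord58b) lies on another chromosome than the gene, and 3 are unplaced. Sequences and positions come from RefSeq tables of GRCm38.p6.

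The tests used limma 3.58.1 under R 4.3.3 (lmFit, eBayes, two-sided, no filter on low values, Benjamini-Hochberg over all genes, call under an adjusted p of 0.05). Pair means counted each embryo once. Media were compared with the pair as a block, since the labels give co-twins of 1 embryo the same number. Over all genes co-twins' deviations correlated with r of 0.112 to 0.685, and 7 of 10 fitted their own co-twin best. Over the 68 members alone r was −0.004 to 0.547, and 4 of 10 fitted their own co-twin best. The number of arrays limits precision, and the labels do not say how many matings or days the embryos came from, so p-values measure the spread between these samples. Comparisons with KSOM share the 10 controls. The steps were tested on simulated data. Alternatives were centring, a second quantile normalization, a filter on low values, mean clusters, other limma settings, array weights, sets of pairs and the replicate block; centred sets of pairs, deviations from KSOM means and values without pair or twin 8 of a set were added after seeing the data. Members and gene lists were chosen with earlier results of these data known. Named members followed a rule: per class and comparison up to 4 called rises and 4 called falls with at least 8 of 10 twins or pair means beyond the controls' median in that direction, else the 2 smallest p, the 6 smallest p for media and origin, all scaRNAs, and listed processing and imprinted RNAs.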

Additional observations from a re-analysis of the deposited data

Results flagged for a closer look

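In groups of 10, a single blastocyst was singled out where its gap to the nearest other, as a share of the group's range, exceeded Dixon's critical value. This was checked for 45 groups and met in 4; chance flags about 1 in 20 groups. The GM501 twin of pair 9 had a Snord111 signal of 8.78, with the next GM501 twin at 5.21, and the SAGE twin of pair 7 had a Snord111 signal of 6.04, with the next SAGE twin at 4.78. The GM501 twin of pair 10 had a Snora30 signal of 8.1, below the others, of which the lowest was at 8.68. The SAGE twin of pair 8 had a box H/ACA median of 6.545, with the next SAGE twin at 8.18.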

How the results depend on the processing

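Numbers in brackets are members called higher and lower. GM501 against KSOM (2 and 2) gave 1 and 1 centred, 1 lower after a second quantile normalization and in the upper 60%, 9 higher with array weights, 0 and 0 in pairs 7 to 10 (also centred), 12 and 13 in pairs 1 to 6 (14 lower centred), 8 higher without twin 8 and 1 and 1 without it centred. SAGE against KSOM (4 and 2) gave 1 higher centred, 13 and 7 with array weights, 4 lower with trend and robust settings, 1 and 0 in pairs 7 to 10 (0 and 0 centred), 14 and 8 in pairs 1 to 6 (10 and 12 centred) and 8 higher without twin 8. Pair means (10 and 4) gave 1 higher centred, 4 higher after quantile normalization, 8 lower with array weights, 1 and 0 in pairs 7 to 10 (0 and 0 centred), 16 and 9 in pairs 1 to 6 (12 lower centred) and 4 higher without pair 8 centred. Embryo of origin (12 members) gave 0 in either set of pairs. The cause was not tested, and each set also held fewer arrays. Signs turned in pairs 7 to 10 for Scarna10 in GM501 twins (0.35, centred 0.36) and for Scarna2 in GM501 twins (0.18, centred 0.20), SAGE twins (0.17, centred 0.12) and pair means (0.18, centred 0.16). They also turned there in pair means for Snord45b (0.25, centred 0.23), Snord13 (0.42, 0.41), Scarna9 (0.53, 0.52), Snord64 (0.61, 0.60), Snord14a (−0.12, −0.13) and, centred alone, Snora21 (−0.0038), and for Snord35a in pairs 1 to 6 (0.0737) and with array weights (0.088).

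Twins and controls share replicate numbers but no embryo; with the number as a replicate block GM501 twins had 2 higher and 1 lower and SAGE twins 5 and 2. Over 611 settings of single members, 479 kept direction and call, 92 lost the call, 19 gained one and 21 turned sign. For all genes, in pair means 53.8% and 12.1% were called higher and lower with array weights, in SAGE twins 47.3% and 10.6%, in GM501 twins 38.1% and 8.98%, and in GM501 twins without twin 8 28.2% and 7.1%, while SAGE twins without twin 8 had 11% and 4.99%. After a second quantile normalization 4.55% of all genes were called higher in pair means and 3.65% lower in GM501 twins. With trend and robust settings 6.35% were lower in SAGE twins. In pairs 1 to 6, 56.5% and 13.2% of all genes were called higher and lower in GM501 twins. The shares there were 55.4% and 12.5% in SAGE twins (centred 12.2% and 19.4%). Signals were low for some called members, with Snord111 under 5 on 16 arrays and Snord45b on 9.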
